A study of Homo sapiens with 6 samples.

Results

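The genes described here are 41 actin cytoskeleton and focal adhesion genes, chosen as a list of symbols for actins, tropomyosins, myosins, filament crosslinkers, LIM domain adaptors and adhesion plaque proteins, together with the transcription factor SRF. All 41 symbols matched a gene in the deposited tables, which hold 22091 gene IDs. RNA was sequenced under 2 conditions from MHCC97L, MHCC97H and HCCLM3, which are 3 cell lines from human hepatocellular carcinoma. The TGF-β1 libraries came from cells given 2.5 ng/mL of the ligand and collected at 4 h, and the control libraries from the same lines at 4 h with no ligand. All lines grew in DMEM with fetal bovine serum, and the labels do not tell whether serum was present during the 4 h. There is 1 library per line and condition, 6 in all, and nothing in the labels tells whether both libraries of the same line came from different cultures. The p-values for TGF-β1 therefore measure how much the response varied between lines, which is not the same as variation between cultures. As background, MHCC97L and MHCC97H are clones of the same parental tumour line with lower and higher metastatic potential, and HCCLM3 descends from MHCC97H, so the lines are related to each other.

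Actin monomers polymerise into filaments that tropomyosins coat, that non-muscle myosin II pulls on, and that filamins and alpha-actinins join into bundles and networks. At focal adhesions, talin, vinculin, zyxin, paxillin and the tensins connect the filament ends to integrins and so to the matrix. In epithelial cells TGF-β1 is known for reorganising this system through SMAD-dependent transcription, and many genes for its parts are targets of SRF, which binds a short sequence called the CArG box when its MRTF coactivators are released from monomeric actin.

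Total expected counts lay between 21257080 and 23242862 in the TGF-β1 libraries and between 18485041 and 22854982 in the controls. Levels are given in CPM (counts scaled to a common library size, here after TMM). Where a library has no count of a gene, up to 3 counts are still compatible with it, or 0.129 to 0.162 CPM on library totals before TMM. The hepatocyte and hepatocellular carcinoma markers summed to 6582 to 9316 CPM after TGF-β1 and 5900 to 7677 CPM in controls, with 8 of 10 at 1 CPM or more in some library, mostly through KRT8 and KRT18, and GPC3 was at 0 in every library. The lines differed in this list. APOA1, APOB and SERPINA1 stayed under 1 CPM in HCCLM3, and TTR did in every line. ALB had 1.26 CPM after TGF-β1 and 1.43 CPM in the control of HCCLM3, against 8.87 to 22.9 CPM in the other lines. No marker of the list was higher in HCCLM3 than in the other lines under the same condition. The fibroblast and stellate cell markers summed to 19.2 to 38.7 CPM after TGF-β1 and 10.5 to 34.4 CPM in controls, with 4 of 7 at 1 CPM or more and PDGFRA at no more than 0.0484 CPM. Of this list, COL1A1 had 7.2, 5.67 and 5.57 CPM after TGF-β1 in MHCC97L, MHCC97H and HCCLM3, against 0.305, 0.476 and 0.425 CPM in controls. COL3A1 had 11.7 CPM after TGF-β1 and 14.4 CPM in the control of HCCLM3, and at most 0.381 CPM in the other lines. None of the 4 smooth muscle markers reached 1 CPM, and their sum was 0.593 to 0.826 CPM after TGF-β1 against 0.519 to 0.87 CPM in controls. The endothelial markers summed to 7.08 to 27.8 CPM against 9.87 to 32.6 CPM, with 2 of 3 at 1 CPM or more, and CD68 was the only leukocyte marker of 3 to reach 1 CPM, the sum being 109 to 246 CPM against 125 to 217 CPM. The part of these other markers in the results was not tested.

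The 41 genes together took 2.89%, 3% and 3.39% of all counts after TGF-β1 in MHCC97L, MHCC97H and HCCLM3, against 2.79%, 2.56% and 3.3% in the controls of those lines. Genes were set beside each other per kilobase of merged exons, which join the exons of all annotated transcripts, expressed or not. PFN1 has 1987 bases of merged exons and CFL1 5863, so order and family shares on this scale depend partly on the annotation. The order began with the cytoplasmic actins. ACTB, which encodes beta-actin, had a median of 2205 CPM per kilobase over the 6 libraries (range 1687 to 3015), and ACTG1, which encodes gamma-actin, 1479 (1307 to 1640). The actin-monomer-binding protein profilin (PFN1) followed at 619, filamin A (FLNA) at 431, TAGLN2 at 219, the actin-severing protein cofilin (CFL1) at 205 and the non-muscle myosin IIA heavy chain (MYH9) at 152 CPM per kilobase. In the whole order of 41 genes, the ranges of neighbours overlapped except between ACTB and ACTG1, ACTG1 and PFN1, FLNA and TAGLN2, TPM3 and MYL12A, CNN2 and LIMA1, TLN1 and VCL, and FLNC and MYO10. The lowest places went to COBL, a filament nucleator, with a median of 1.05 CPM per kilobase, then TNS4 at 0.309, CNN1 at 0.244, TNS1 at 0.156 and ACTA2 at 0.0156.

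**Figure D1:**
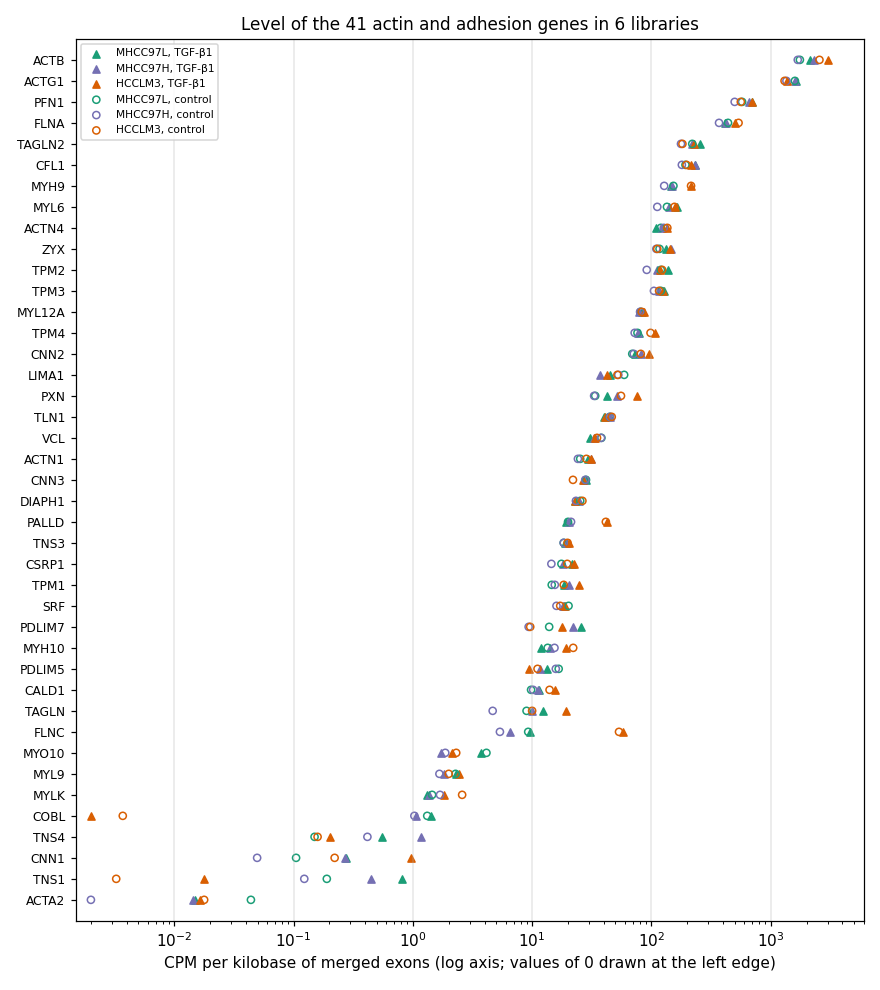
Level of each of the 41 genes in CPM per kilobase of merged exons (log axis), filled triangles for TGF-β1 libraries and open circles for controls, coloured by line. ACTB and ACTG1 are the highest genes in every library, and FLNC, COBL and TNS1 are the genes whose HCCLM3 points lie farthest from those of the other lines.

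ACTA2, the smooth muscle actin used as a marker of activated stellate cells and myofibroblasts, was close to absent. It had 1 count in each TGF-β1 library, against 3, 0 and 1 counts in the MHCC97L, MHCC97H and HCCLM3 controls. It failed the filter on low counts and was not tested. No library exceeded the 3 counts that a count of 0 allows. Of the other smooth muscle differentiation markers, MYH11, DES, LMOD1, SYNPO2, MYOCD, ACTG2, CASQ2 and PLN all stayed under 1 CPM in every library. SMTN and KCNMB1 of the same list were expressed above the filter. KCNMB1 had 36, 44 and 50 counts after TGF-β1 in MHCC97L, MHCC97H and HCCLM3, against 38, 32 and 40 counts in controls. SMTN had 1011, 1018 and 1319 counts against 603, 432 and 693 counts in the same order, and its change is given below.

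The first comparison asks how the genes responded to TGF-β1 across the 3 lines. Changes are log2 ratios of TGF-β1 over control, each with its SE (standard error), from edgeR's quasi-likelihood test with cell line as a term, and adjusted p-values are Benjamini-Hochberg values over all 14176 genes tested. Of the 40 genes tested, 13 rose and 3 fell at an adjusted p under 0.05. Among all genes tested 14.4% were called, 7.79% higher and 6.65% lower. The median change was 0.13 for the 40 genes and −0.003 for all genes. In bulk RNA, more cells expressing a gene and more RNA per cell cannot be told apart. In direction alone, 23 of the 40 were higher after TGF-β1 in all 3 lines, which is 57.5% against 24.8% of all genes, and 8 were lower in all 3 lines, 20% against 25.7%. Without MHCC97L, 5 genes were called higher and 0 lower, where 4.29% of all genes were called. Without MHCC97H, 6 were higher and 1 lower, where 6.86% were, and without HCCLM3, 16 were higher and 3 lower, where 27.7% were. Scaling by library totals in place of TMM left 10 genes higher and 3 lower and moved the share of higher calls among all called genes to 37.2%, against 53.9% with TMM.

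**Figure D2:**
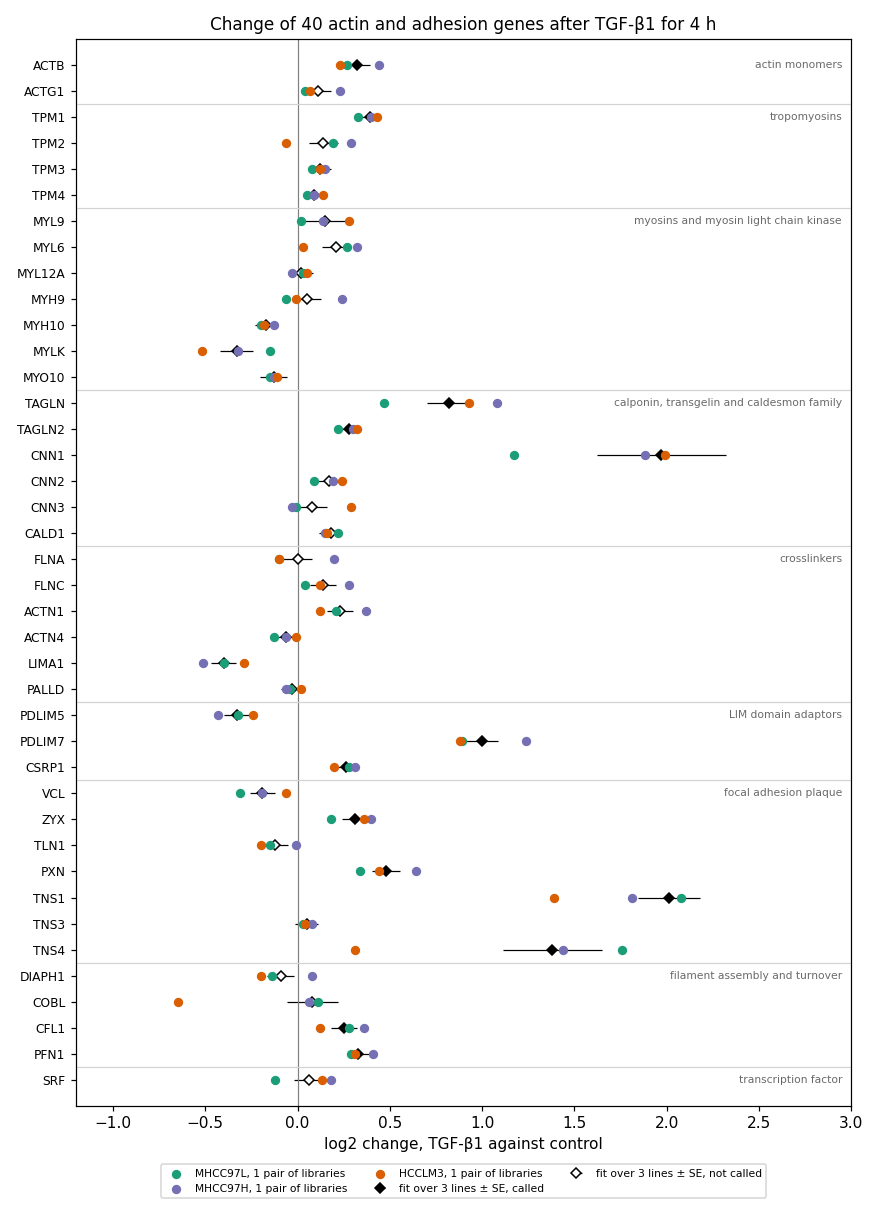
Log2 change after TGF-β1 for the 40 tested genes, ordered by role, with coloured points for the pair of libraries of each line and diamonds with SE bars for the fit over 3 lines, black where the gene passed the test. TNS1, CNN1, TNS4, PDLIM7 and TAGLN lie farthest to the right, and LIMA1, PDLIM5 and MYLK are the called genes to the left of 0.

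The changes of 1.5-fold or more within a line were few. Counting genes with at least 5 CPM in either library of the line, PDLIM7 and TNS1 passed it in MHCC97L, 2 of 38, where 3.57% of all genes did. In MHCC97H it was passed by TAGLN, PDLIM7, PXN, TNS1 and TNS4, 5 of 39, beside 5.14% of all genes. In HCCLM3 TAGLN and PDLIM7 passed, 2 of 36, beside 3.51%. Of the genes over this minimum none was lower by 1.5-fold in its line, while 2.19%, 3.92% and 2.23% of all genes were in MHCC97L, MHCC97H and HCCLM3. TNS1 in both MHCC97 lines and TNS4 in MHCC97H reached 5 CPM only in the TGF-β1 library, so they could enter this count only as increases. These within-line values compare 2 libraries and have no test.

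Of the 7 adhesion plaque genes, TNS1, TNS4, PXN and ZYX rose, none fell, and VCL, TLN1 and TNS3 did not pass the test. Tensins bind actin filaments and the cytoplasmic tails of beta integrins. TNS1 (ENSG00000079308.16, chr2:217799588-218033982, minus strand, GRCh38) stood at 13.3, 7.26 and 0.291 CPM after TGF-β1 in MHCC97L, MHCC97H and HCCLM3, against 3.09, 2 and 0.0531 CPM in their controls. It was higher after TGF-β1 in each line, and the HCCLM3 libraries lay below all others. The fitted change was 2.01 (SE 0.168, 4.03-fold, adjusted p = 0.000161). In HCCLM3 it rests on 6 counts against 1, a log2 change of 1.39 after adding a prior count of 2. The 95% counting interval runs from −0.59 to 7.98. Here and below, counting intervals are for the ratio without that prior count, so they are not centred on the change given. TNS4, a short tensin that lacks the actin-binding part, had 2.68, 5.65 and 0.981 CPM against 0.727, 2.02 and 0.773 CPM in the same order of lines. The conditions overlap for TNS4, because the HCCLM3 level after TGF-β1 lies under the MHCC97H control. Its change was 1.38 (SE 0.269, adjusted p = 0.0123), with 0.31 in HCCLM3 (counting interval −0.76 to 1.35). That call was lost without MHCC97L (adjusted p = 0.0805), without MHCC97H (0.101) and with DESeq2 (0.067). TNS3, which held 92.4% to 98.9% of the summed TNS1, TNS3 and TNS4 level per kilobase after TGF-β1 and 97.2% to 99.2% in controls, changed by 0.05 (SE 0.0614, adjusted p = 0.66).

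PXN, which encodes the adhesion scaffold paxillin (ENSG00000089159.16, chr12:120210439-120265771, minus strand), stood at 319, 386 and 562 CPM after TGF-β1, against 252, 247 and 415 CPM in controls. Each line was higher with the ligand, and the HCCLM3 control was above the TGF-β1 libraries of both other lines. The change was 0.48 (SE 0.0743, 1.39-fold, adjusted p = 0.00494). ZYX encodes zyxin, which recruits actin regulators to adhesions under tension. It had 461, 506 and 501 CPM after TGF-β1 and 407, 384 and 391 CPM in controls, and the lowest TGF-β1 library was above the highest control. Its change of 0.31 (SE 0.0688, adjusted p = 0.0204) was not called without MHCC97L (adjusted p = 0.123) or without MHCC97H (0.0969). Vinculin (VCL), which strengthens the link of talin to actin, was at −0.19 (SE 0.0694, adjusted p = 0.108) and passed the test only in the fit without HCCLM3 (0.00961). Talin 1 (TLN1), which activates integrins, was at −0.12 (SE 0.0665, adjusted p = 0.26). CREB3, which overlaps TLN1 on the opposite strand, changed by 0.33 (adjusted p = 0.0339), and reads of overlapping genes cannot be told apart if the libraries did not keep strand.

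All 3 LIM domain adaptors were called, in both directions. PDLIM7 encodes enigma, a protein that ties kinases and other partners to actin filaments (ENSG00000196923.13, chr5:177483394-177497606, minus strand). It had 114, 97.5 and 78.2 CPM after TGF-β1, against 61.2, 41.2 and 42.5 CPM in controls, so every TGF-β1 library was above every control. The change was 1.0 (SE 0.0874, 2.01-fold, adjusted p = 0.000265), and within lines 0.89, 1.24 and 0.88 in MHCC97L, MHCC97H and HCCLM3. CSRP1, a LIM protein that binds alpha-actinin and zyxin, had 220, 186 and 234 CPM against 181, 150 and 203 CPM. It was higher after TGF-β1 in each line, though the conditions overlap, with a change of 0.26 (SE 0.063, adjusted p = 0.0265) that was not called without MHCC97L (0.317), without MHCC97H (0.104) or with library totals (0.0615). PDLIM5, which also carries PDZ and LIM domains and binds alpha-actinin, went the other way. Its levels were 149, 130 and 105 CPM after TGF-β1 and 185, 175 and 124 CPM in controls, lower with the ligand in each line and lowest in HCCLM3. It fell by 0.33 on the log2 scale (SE 0.0673, adjusted p = 0.0151), and this was not called without MHCC97L (0.183) or without MHCC97H (0.0725).

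Of the calponin, transgelin and caldesmon family 3 of 6 genes rose and none fell. TAGLN encodes transgelin, an actin-bundling protein known as an early smooth muscle marker (ENSG00000149591.16, chr11:117199321-117204782, plus strand). It had 48.8, 38.9 and 75.1 CPM after TGF-β1, against 35.2, 18.3 and 39.3 CPM in controls. Every line was higher with the ligand, and the conditions meet only where the MHCC97H library after TGF-β1 lies just under the HCCLM3 control. The change was 0.82 (SE 0.116, 1.77-fold, adjusted p = 0.00395), and the single lines gave 0.47 (MHCC97L), 1.08 (MHCC97H) and 0.93 (HCCLM3). PCSK7, which overlaps TAGLN on the opposite strand, changed by 0.12 (adjusted p = 0.361). CNN1 encodes calponin 1, which damps actomyosin sliding in smooth muscle (ENSG00000130176.7, chr19:11538717-11550323, plus strand). It rested on few reads, with 18, 18 and 58 counts after TGF-β1 against 7, 3 and 12 counts in controls, or 0.8, 0.773 and 2.81 CPM against 0.305, 0.143 and 0.637 CPM. All TGF-β1 libraries were above all controls, and HCCLM3 was highest on each side. The fitted change was 1.97 (SE 0.349, 3.92-fold, adjusted p = 0.00866). CNN1 passed the filter on low counts through its TGF-β1 libraries, since of the controls only that of HCCLM3 was high enough. At these control levels a decrease would have left CNN1 untested, so it could enter the calls only as an increase. The within-line changes were 1.17 (counting interval 0.07 to 2.9) for MHCC97L, 1.88 (0.66 to 4.84) for MHCC97H and 1.99 (1.23 to 3.17) for HCCLM3, and DESeq2 gave no adjusted p for this gene.

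TAGLN2, the widely expressed relative of transgelin, was the highest gene of the family per kilobase. It had 638, 543 and 567 CPM after TGF-β1 and 547, 441 and 453 CPM in controls, higher with the ligand in each line. The change was 0.28 (SE 0.0627, adjusted p = 0.0204), not called without MHCC97L (0.216) or without MHCC97H (0.0828). Per kilobase TAGLN made up 4.63%, 4.34% and 7.75% of TAGLN and TAGLN2 together after TGF-β1, against 3.92%, 2.57% and 5.22% in controls. CNN2, CNN3 and CALD1 were at 0.17, 0.08 and 0.18 with adjusted p-values of 0.109, 0.54 and 0.0946. CNN1 was under 1% of the calponin level per kilobase in every library, at most 0.786% after TGF-β1 and 0.213% in controls.

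**Figure D3:**
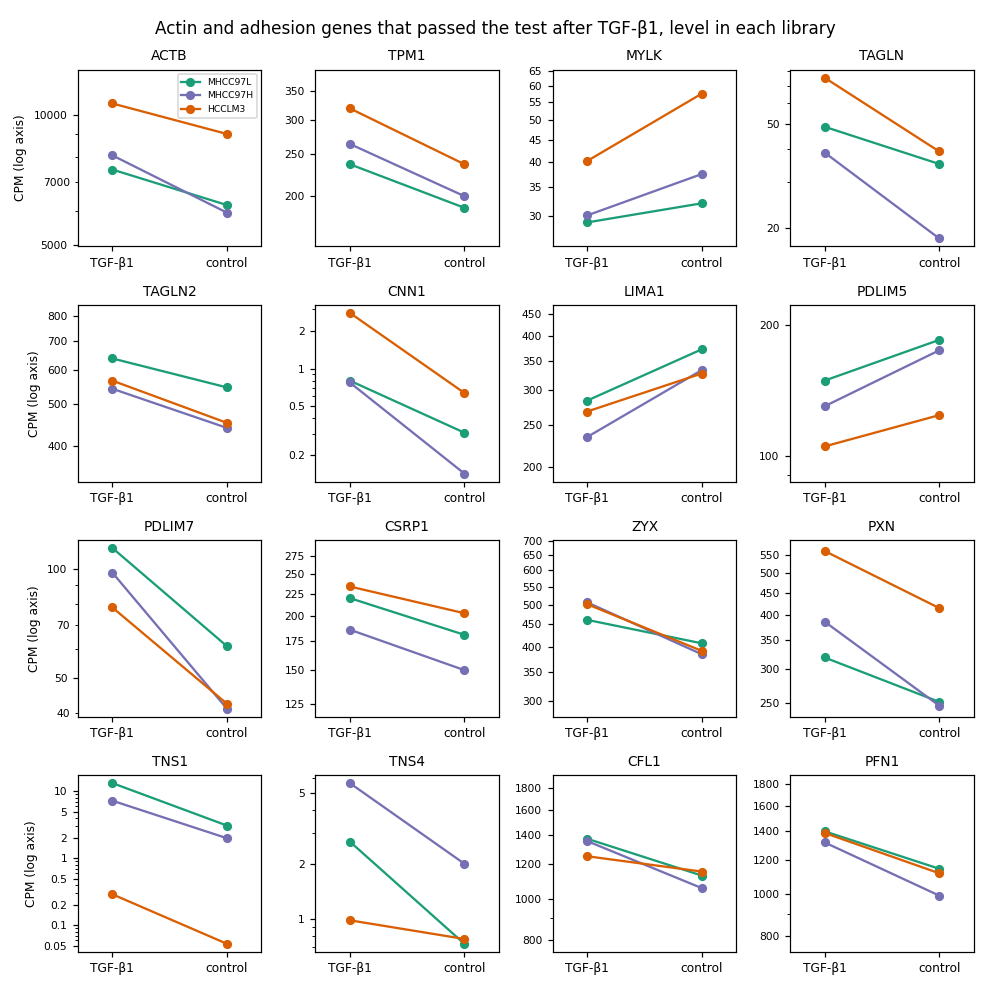
CPM (log axis) of the 16 genes that passed the test after TGF-β1, each panel with TGF-β1 on the left and control on the right and a line joining the 2 libraries of each cell line. Every called gene moves the same way in the 3 lines, and the panels differ in how far apart the lines lie, with HCCLM3 far below the others for TNS1.

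Among the actins, ACTB rose while ACTG1 did not pass the test. ACTB had 7466, 8051 and 10610 CPM after TGF-β1 and 6182, 5937 and 9022 CPM in the MHCC97L, MHCC97H and HCCLM3 controls. Each line was higher with the ligand, and both HCCLM3 libraries were above those of the other lines. The change was 0.32 (SE 0.0716, 1.24-fold, adjusted p = 0.0221). It was not called without MHCC97L (0.294), without MHCC97H (0.152), with library totals (0.0558) or with the non-robust fit (0.0618). ACTG1 had 4910, 4750 and 4103 CPM after TGF-β1 and 4776, 4055 and 3911 CPM in controls, a change of 0.11 (SE 0.0697, adjusted p = 0.315). Per kilobase, ACTB made up 56.4%, 59% and 68.7% of the 2 cytoplasmic actins after TGF-β1, against 52.4%, 55.5% and 66.2% in controls, so its share was higher with the ligand in all 3 lines. ACTB alone took 0.728%, 0.806% and 1.03% of a TGF-β1 library's counts, against 0.622%, 0.611% and 0.919% in controls.

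Of the 4 filament assembly genes PFN1 and CFL1 rose, and DIAPH1 and COBL did not pass the test. PFN1, whose product delivers actin monomers to growing filament ends, had 1396, 1316 and 1384 CPM after TGF-β1 and 1144, 992 and 1117 CPM in controls, with no overlap. Its change was 0.33 (SE 0.0644, adjusted p = 0.0117), not called without MHCC97L (0.178) or without MHCC97H (0.0647). CFL1, whose product severs and recycles filaments, had 1374, 1357 and 1252 CPM after TGF-β1 and 1130, 1057 and 1154 CPM in controls, again with no overlap. Its change of 0.25 (SE 0.0706, adjusted p = 0.0451) lay close to the threshold and was not called without MHCC97L (0.42), without MHCC97H (0.218), with upper quartile factors (0.06), with library totals (0.108) or with the non-robust fit (0.0629). The formin DIAPH1, which elongates filaments, was at −0.09 (SE 0.0735, adjusted p = 0.465) and COBL at 0.08 (SE 0.137, adjusted p = 0.746). ENO3, which overlaps PFN1 on the opposite strand, had at most 4.07 CPM after TGF-β1 and 3.26 CPM in controls.

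Of the 4 tropomyosins only TPM1 was called. TPM1 had 237, 264 and 319 CPM after TGF-β1 and 188, 200 and 237 CPM in controls. It was higher with the ligand in each line, and the highest control met the lowest TGF-β1 library. The change was 0.39 (SE 0.0625, 1.31-fold, adjusted p = 0.00573), not called without MHCC97L (0.0838). TPM2, TPM3 and TPM4 were at 0.14, 0.12 and 0.09, with adjusted p-values of 0.273, 0.248 and 0.346, and TPM2 was called only in the fit without HCCLM3 (0.0139). Per kilobase TPM1 was the smallest of the tropomyosins, at 5.09%, 6.3% and 6.57% of the 4 after TGF-β1, against 4.42%, 5.46% and 5.17% in controls.

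Motor and crosslinker genes mostly failed the test, and both calls were decreases. MYLK encodes myosin light chain kinase, which switches on myosin II by phosphorylating its light chain. It had 29, 30.1 and 40.2 CPM after TGF-β1 and 32.1, 37.5 and 57.5 CPM in controls, lower with the ligand in each line and highest in HCCLM3 on both sides. It fell by 0.33 on the log2 scale (SE 0.0885, adjusted p = 0.0395). The call was not made without MHCC97L (0.112), without MHCC97H (0.0956), without HCCLM3 (0.0567) or with DESeq2 (0.0759). The other 6 myosin genes lay between −0.17 (MYH10) and 0.21 (MYL6), with adjusted p-values from 0.1 to 0.864, and MYL6 passed only without HCCLM3 (0.00321). LIMA1, also called EPLIN, stabilises filaments and links them to cadherin junctions. It had 284, 234 and 268 CPM after TGF-β1 and 373, 334 and 328 CPM in controls, with every TGF-β1 library below every control. It fell by 0.40 on the log2 scale (SE 0.068, adjusted p = 0.00707), and this was not called without MHCC97L (0.107).

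The other 5 crosslinkers did not pass the test. FLNA was at 0.00 (SE 0.0792, adjusted p = 0.991), FLNC at 0.14 (SE 0.0703, adjusted p = 0.206), ACTN4 at −0.06 (SE 0.0635, adjusted p = 0.536) and PALLD at −0.03 (SE 0.0618, adjusted p = 0.81). Alpha-actinin 1 (ACTN1), which cross-bridges parallel filaments, was just outside the threshold at 0.23 (SE 0.0701, adjusted p = 0.0567) and was called with DESeq2 (0.0327) and without HCCLM3 (0.00575). It made up 21%, 20.4% and 18.7% of ACTN1 and ACTN4 together per kilobase after TGF-β1, against 17.4%, 16% and 17.3% in controls.

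SRF itself did not pass the test. It had 77.8, 76.5 and 79.5 CPM after TGF-β1, against 84.7, 67.4 and 72.4 CPM in controls, a change of 0.06 (SE 0.0792, adjusted p = 0.633). The line values were −0.12 in MHCC97L, 0.18 in MHCC97H and 0.13 in HCCLM3, so the lines did not share a direction.

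Reads that match several genes bear on these values. Counts were whole in all 6 libraries for 14 of the 41 genes and had decimals for 27, as happens when a read is divided among genes. Of the 13 tested genes with whole counts, 7 rose and none fell, namely PDLIM7, TNS1, CNN1, PXN, ZYX, TAGLN2 and CSRP1. Of the 27 with divided counts, 6 rose and 3 fell. The shares called among all genes with whole or with divided counts were not computed, and the difference was not tested. GENCODE 29 names 10 pseudogenes for ACTB, 20 for ACTG1, 10 for PFN1 and 8 for CFL1. It also names 11 for CNN2, 8 for TPM3, 5 for MYL6 and 1 or 2 for some others, such as TPM4 and ACTN4. None of these pseudogenes is in the deposited tables, so the levels of these genes are uncertain to that extent.

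PDLIM7, TNS1, PXN and TAGLN kept their calls in every alternative that had cell line as a term, and so did CNN1 in those that gave it a value. With no line term, so that the line levels count as replicate spread, none of the 40 genes was called, and 10 of all 14176 genes were. At an unadjusted p under 0.05 that fit held 8 of the 40, and the share of all genes at that level was not computed.

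Promoter sequence was set beside the calls because SRF, SMAD, AP-1 and TEAD factors are known regulators of such genes. The windows are the 250 bases before each RefSeq start in GRCh38.p14, given on the gene's strand, and 36 of the 41 genes had 66 windows. ACTB, TAGLN and TNS4, which rose, and MYL9 and COBL, which did not pass the test, are without a window here. The motifs searched on both strands were CArG (CC, then 6 bases that are A or T, then GG), the AP-1 site TGANTCA, the SMAD element CAGAC and the TEAD site GGAATG. A CArG box was in 7 of the 66 windows, or 10.6%, against 1.16% of all 35116 windows in the table. The 7 genes that hold it are ACTG1, ACTN1, CNN2, FLNA, MYLK, SRF and TPM4. Counted by gene, it was in 19.4% of the 36 genes with a window, against 1.44% of all genes in the table. Of the 13 genes that rose, 10 have a window and none of these held a CArG box, which is near the share of all genes. A CArG box was in 1 of the 3 genes that fell, which is MYLK, and in 6 of the 22 genes with a window that were tested and not called. The only MYLK window, at chr3:123620549-123620798, lies inside the annotated gene (chr3:123610049-123884331, minus strand). It belongs to an internal start, and the sequence before the outermost start of MYLK was not searched. These counts leave out ACTB, TAGLN and TNS4, which rose and could not be searched. They also take exact matches only, so a CArG-like run with a base outside the pattern was not counted. No test was made of these counts. AP-1 sites were in 6.06% of the windows of these genes against 6.57% of all, CAGAC in 50% against 38% and GGAATG in 24.2% against 11.9%. A match is only a run of letters and no measurement of binding.

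Example windows follow, with motif matches in capitals. The first 5 were picked because they hold a CArG box. In SRF the matches CCATATAAGG and CCATAAAAGG lie 30 to 21 and 10 to 1 bases before the start. In ACTG1 (CCATATATGG), FLNA (CCAATTAAGG) and MYLK (CCTTTTATGG) the box lies 94 to 85 bases before it, and in CNN2 (CCTTATAAGG) 89 to 80. They are SRF at chr6:43171019-43171268 (plus strand), ACTG1 at chr17:81512800-81513049 (minus), FLNA at chrX:154374635-154374884 (minus), MYLK at chr3:123620549-123620798 (minus) and CNN2 at chr19:1026358-1026607 (plus).
SRF: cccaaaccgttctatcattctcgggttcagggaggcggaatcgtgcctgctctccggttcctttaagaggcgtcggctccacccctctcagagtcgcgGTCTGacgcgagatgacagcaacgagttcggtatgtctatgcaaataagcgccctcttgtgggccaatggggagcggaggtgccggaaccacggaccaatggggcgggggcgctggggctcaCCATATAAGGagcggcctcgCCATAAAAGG
ACTG1: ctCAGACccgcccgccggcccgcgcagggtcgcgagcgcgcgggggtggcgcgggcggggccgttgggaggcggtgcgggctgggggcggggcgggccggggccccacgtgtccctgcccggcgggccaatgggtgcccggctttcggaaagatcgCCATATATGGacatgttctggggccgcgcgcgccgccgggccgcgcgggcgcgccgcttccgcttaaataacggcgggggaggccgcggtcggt
FLNA: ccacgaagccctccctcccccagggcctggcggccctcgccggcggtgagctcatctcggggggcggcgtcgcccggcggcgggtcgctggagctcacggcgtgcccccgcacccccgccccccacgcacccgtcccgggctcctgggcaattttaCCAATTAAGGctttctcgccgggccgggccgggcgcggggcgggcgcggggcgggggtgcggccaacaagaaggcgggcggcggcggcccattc
MYLK: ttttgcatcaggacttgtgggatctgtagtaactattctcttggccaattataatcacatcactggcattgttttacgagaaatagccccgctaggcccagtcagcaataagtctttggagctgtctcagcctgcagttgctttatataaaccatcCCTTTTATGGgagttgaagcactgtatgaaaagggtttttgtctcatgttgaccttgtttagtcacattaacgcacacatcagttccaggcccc
CNN2: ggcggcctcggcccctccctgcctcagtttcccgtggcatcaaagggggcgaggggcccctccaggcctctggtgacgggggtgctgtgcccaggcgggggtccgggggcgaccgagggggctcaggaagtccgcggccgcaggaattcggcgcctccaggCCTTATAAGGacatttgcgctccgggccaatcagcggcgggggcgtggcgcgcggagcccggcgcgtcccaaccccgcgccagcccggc

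The next 4 windows were picked from genes that rose and hold no CArG box. They are PDLIM7 at chr5:177497605-177497854 (minus strand), which held none of the 4 motifs, PXN at chr12:120265731-120265980 (minus), which also held none, CNN1 at chr19:11538601-11538850 (plus) and TPM1 at chr15:63048239-63048488 (plus). In the CNN1 and TPM1 windows the capitals mark CAGAC read on the opposite strand. PXN has another window, at chr12:120250164-120250413 (minus) and not printed here, which held GGAATG on the opposite strand.
PDLIM7: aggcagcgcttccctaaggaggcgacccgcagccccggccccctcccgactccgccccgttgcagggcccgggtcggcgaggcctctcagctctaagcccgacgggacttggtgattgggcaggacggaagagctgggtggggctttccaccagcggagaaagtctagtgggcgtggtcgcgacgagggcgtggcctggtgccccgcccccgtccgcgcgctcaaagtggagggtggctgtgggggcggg
PXN: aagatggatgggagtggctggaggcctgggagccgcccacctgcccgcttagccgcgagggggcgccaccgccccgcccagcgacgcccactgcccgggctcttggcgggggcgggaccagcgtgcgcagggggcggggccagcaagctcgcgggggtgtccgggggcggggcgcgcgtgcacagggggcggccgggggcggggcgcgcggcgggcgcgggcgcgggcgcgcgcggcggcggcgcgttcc
CNN1: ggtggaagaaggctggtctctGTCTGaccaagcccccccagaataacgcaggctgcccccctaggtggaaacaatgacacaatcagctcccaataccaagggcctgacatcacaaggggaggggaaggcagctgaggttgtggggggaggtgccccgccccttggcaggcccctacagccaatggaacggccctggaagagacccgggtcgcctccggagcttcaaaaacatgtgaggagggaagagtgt
TPM1: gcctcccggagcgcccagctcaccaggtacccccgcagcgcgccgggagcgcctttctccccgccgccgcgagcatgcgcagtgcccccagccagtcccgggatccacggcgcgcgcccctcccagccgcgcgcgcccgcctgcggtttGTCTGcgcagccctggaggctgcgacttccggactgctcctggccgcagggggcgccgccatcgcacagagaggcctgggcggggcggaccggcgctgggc

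The second set of comparisons asks how the genes differed between the lines, over the 2 libraries of each line and with treatment as a term in the same fit. Their p-values rest on the same residual spread, which is how much the response varied between lines. No line has replicate libraries under the same condition, so these p-values do not measure variation between cultures of a line. HCCLM3 differed from each MHCC97 line at 20 of the 40 genes, and the MHCC97 lines differed from each other at 3. Against MHCC97L, 14 genes were higher in HCCLM3 and 6 lower, where 29.8% of all genes were called, 15% higher and 14.8% lower. Against MHCC97H, 16 were higher and 4 lower, where 27.2% of all genes were called, 13.3% higher and 13.9% lower. In MHCC97H against MHCC97L, MYO10, FLNC and TNS1 were lower and none was higher, where 2.45% of all genes were called, 1.37% higher and 1.09% lower. At an unadjusted p under 0.05, 2 genes were higher and 12 lower in that comparison, and neither DESeq2 nor limma-voom called any higher. The share of all genes at that unadjusted p was not computed, so these counts have no background. Without HCCLM3, 2 were called higher and 10 lower in MHCC97H, where 9.04% of all genes were called and 55.5% of those calls were higher. The median differences were 0.04 for HCCLM3 against MHCC97L, 0.12 for HCCLM3 against MHCC97H and −0.08 for MHCC97H against MHCC97L. The HCCLM3 comparisons share the HCCLM3 libraries.

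FLNC, the muscle-type filamin that crosslinks filaments and binds at Z-discs in muscle, had the largest called positive difference of the 41 in both HCCLM3 comparisons (ENSG00000128591.15, chr7:128830377-128859274, plus strand). HCCLM3 had 541 CPM after TGF-β1 and 497 CPM in the control. MHCC97H had 60.4 and 49.8 CPM, and MHCC97L 88.2 and 86 CPM, in the same order of conditions. The HCCLM3 libraries were far above the other 4. The log2 difference was 2.57 against MHCC97L (SE 0.0898, adjusted p = 4.91e-07) and 3.24 against MHCC97H (SE 0.0927, adjusted p = 1.25e-07), and MHCC97H was below MHCC97L by −0.67 (SE 0.0874, adjusted p = 0.00691). FLNC made up 10.4% of FLNA and FLNC together per kilobase in HCCLM3 after TGF-β1 and 9.05% in its control, where the other lines had at most 2.26% and 2.07%.

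COBL, which encodes the filament nucleator cordon-bleu (ENSG00000106078.17, chr7:51016212-51316818, minus strand), was nearly missing from HCCLM3. It had 0 counts after TGF-β1 and 1 count in the control of that line, against 357 and 309 counts in MHCC97H and 461 and 436 counts in MHCC97L. In CPM the MHCC97H libraries had 15.3 and 14.7, and the MHCC97L libraries 20.5 and 19. From 1 count against 897, the log2 ratio of HCCLM3 to MHCC97L was −9.6, with a 95% counting interval from −14.91 to −7.12. From 1 against 666, the ratio to MHCC97H was −9.21, from −14.52 to −6.73. The adjusted p-values were 1.23e-07 and 2.21e-07.

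TNS1 was also low in HCCLM3, with 7 counts over its 2 libraries against 211 in MHCC97H and 371 in MHCC97L. The log2 ratios were −4.75 to MHCC97H (counting interval −6.08 to −3.68, adjusted p = 1.74e-05) and −5.52 to MHCC97L (−6.85 to −4.47, adjusted p = 3.43e-06). MHCC97H was below MHCC97L by −0.80 (SE 0.165, adjusted p = 0.0416), a call that was lost with library totals (0.0516), DESeq2 (0.54), limma-voom (0.127) and the non-robust fit (0.0575). TNS4 was lower in HCCLM3 than in MHCC97H (−2.09, SE 0.339, adjusted p = 0.00204) and was not called against MHCC97L (−0.92, SE 0.388, adjusted p = 0.111). TNS3 was called in no comparison of lines.

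MYO10, an unconventional myosin of filopodia, ran in another order. It had 29.7 CPM after TGF-β1 and 32.2 CPM in the control of HCCLM3, 23.9 and 26.1 CPM in MHCC97H, and 52 and 57.9 CPM in MHCC97L. MHCC97L was the highest line. MHCC97H differed from MHCC97L by −1.13 (SE 0.0893, adjusted p = 0.000752) and HCCLM3 from MHCC97L by −0.83 (SE 0.0886, adjusted p = 0.000191). HCCLM3 was above MHCC97H by 0.31 (SE 0.0908, adjusted p = 0.0342), which was not called without MHCC97L (0.135), with library totals (0.051) or with DESeq2 (0.129).

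**Figure D4:**
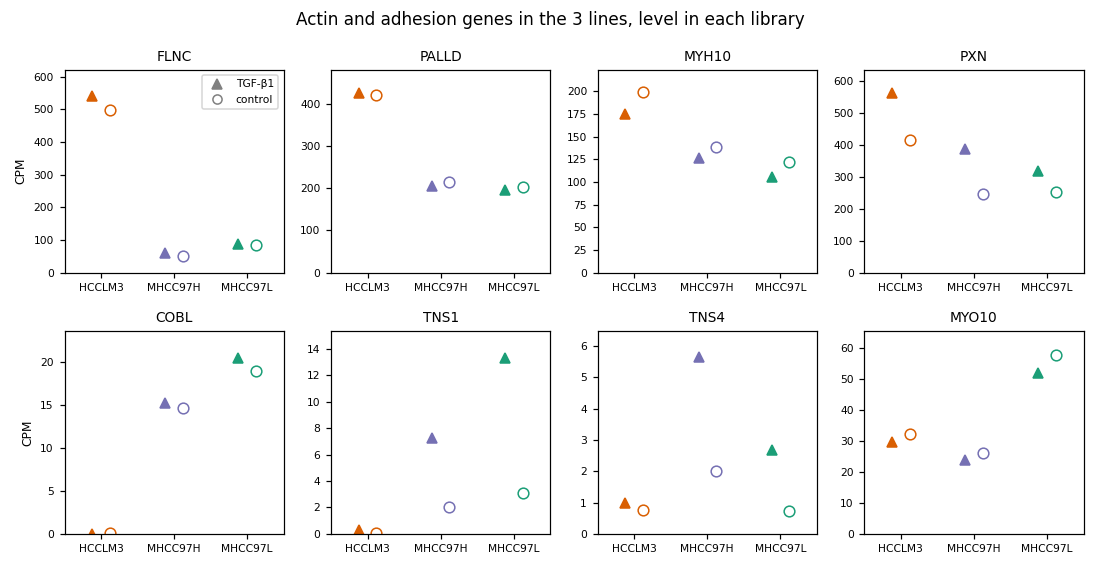
CPM of 8 genes in each library, HCCLM3, MHCC97H and MHCC97L from left to right, with filled triangles for TGF-β1 and open circles for control. FLNC and PALLD are high in HCCLM3, COBL and TNS1 are near 0 there, and for FLNC, PALLD and COBL the gap between HCCLM3 and the other lines exceeds any gap between conditions.

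Contractile and crosslinking genes were among those higher in HCCLM3 than in both other lines. PALLD, which encodes the alpha-actinin-binding scaffold palladin, had 426 and 420 CPM in HCCLM3 after TGF-β1 and in its control, 206 and 215 CPM in MHCC97H, and 196 and 202 CPM in MHCC97L. Its differences were 1.09 against MHCC97L (SE 0.0765, adjusted p = 1.97e-05) and 1.01 against MHCC97H (SE 0.0764, adjusted p = 3.5e-05). The heavy chain gene MYH10 was higher by 0.72 and 0.49, MYH9 by 0.52 and 0.63, MYLK by 0.66 and 0.52, and PXN by 0.77 and 0.64, against MHCC97L and MHCC97H in that order. ACTB was higher by 0.53 (SE 0.0878, adjusted p = 0.00207) and 0.50 (SE 0.0878, adjusted p = 0.00309). CALD1, TPM4, TPM1, FLNA and CNN1 were called higher in both comparisons too. For FLNA the call against MHCC97L (adjusted p = 0.0493) was lost with upper quartile factors (0.0543), library totals (0.0621) and the non-robust fit (0.0945), and the call against MHCC97H (0.0158) without MHCC97L (0.0809). TPM1 against MHCC97H (0.0334) was lost without MHCC97L (0.156) and with library totals (0.0574), and CNN1 was not called with DESeq2 (0.216 against MHCC97L, 0.0921 against MHCC97H).

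Some genes were called against a single line. TAGLN was higher in HCCLM3 than in MHCC97H by 1.02 (SE 0.143, adjusted p = 0.00131), and at 0.39 against MHCC97L it was not called (SE 0.14, adjusted p = 0.0706) except without MHCC97H (0.0271). CSRP1 and MYL6 were higher against MHCC97H, by 0.38 and 0.33, and the MYL6 call (adjusted p = 0.026) was lost without MHCC97L (0.0982) and with library totals (0.0506). Against MHCC97L, CNN2 was higher by 0.31 and ACTN4 by 0.24, the ACTN4 call (0.0473) being lost without MHCC97H (0.0522), with upper quartile factors (0.0593) and with the non-robust fit (0.0569). ACTG1 was lower in HCCLM3 than in MHCC97L by −0.27 (adjusted p = 0.0399), which was lost with library totals (0.0609) and the non-robust fit (0.0837), and PDLIM7 was lower by −0.53. PDLIM5 was lower in HCCLM3 against both lines, by −0.54 and −0.41 against MHCC97L and MHCC97H. The difference between being called against one line and not against the other was not tested.

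Genes of the same system outside the 41 were taken as 3 lists. Of the 28 tested genes among 30 other focal adhesion genes, 8 rose and none fell, with a median of 0.18, so 28.6% were called where 14.4% of all genes were (7.79% higher and 6.65% lower). NEDD9, an adhesion scaffold of the p130Cas family, had 37.5, 38.3 and 73.6 CPM after TGF-β1 against 19.9, 16.3 and 25.9 CPM in controls, a change of 1.22 (SE 0.111, adjusted p = 0.000323). VASP, whose product promotes filament elongation and binds zyxin, rose by 0.65 (SE 0.0658, adjusted p = 0.00055), and LIMS1, the PINCH adaptor of integrin-linked kinase, by 0.45 (SE 0.0644, adjusted p = 0.00313). PDLIM3, a partner of alpha-actinin, rose by 0.51 (SE 0.0883, adjusted p = 0.00742). The kindlin genes FERMT1 and FERMT2, whose products activate integrins, rose by 0.77 (SE 0.132, adjusted p = 0.0129) and 0.42 (SE 0.0885, adjusted p = 0.0163). In the ARP2/3 list 3 of 13 genes rose, namely ARPC5, ARPC3 and ARPC1B by 0.25, 0.23 and 0.32, and none fell, with a median of 0.06, and the 23.1% called stands beside the same 14.4% of all genes. Of 10 smooth muscle differentiation markers only SMTN and KCNMB1 could be tested, and SMTN, which encodes smoothelin, rose by 0.88 (SE 0.0866, adjusted p = 0.000475), with 44.9, 43.7 and 63.9 CPM after TGF-β1 against 26.2, 20.6 and 36.8 CPM in controls.

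**Figure D5:**
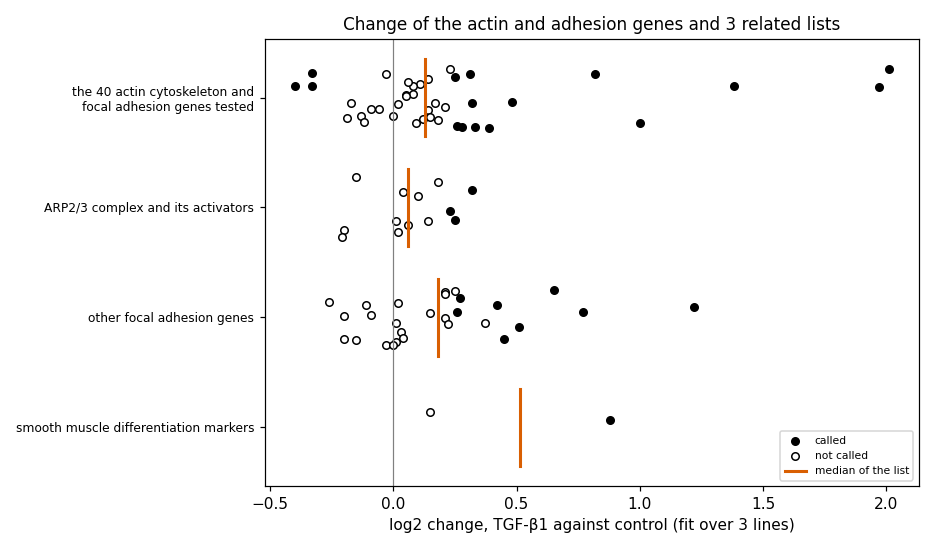
Fitted log2 change after TGF-β1 for each tested gene of the 41 and of 3 related lists, filled where the gene passed the test, with the list median as a bar. The medians are 0.13, 0.06 and 0.18 for the 41 genes, ARP2/3 and other focal adhesion genes, and the smooth muscle list holds only 2 tested genes.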

How the data were processed

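RNA sequencing values came as 1 table of expected counts per gene for each of the 6 libraries, deposited by the authors with Ensembl IDs. That they are expected counts is read from the values, of which 63.6% to 64.6% in a library were whole numbers. The build hg38 and the tools TopHat2 (2.1.1), Cuffdiff (1.3.0) and Cufflinks (2.2.1) are named, without roles, by the submitters' processing notes. The counting tool, the library kit and whether strand was kept are not given in the sources used here. Symbols came from a gene name table for 19461 of 22091 IDs and from GENCODE 29 for 95, and 2535 IDs had none. Coordinates, exon lengths and overlaps came from GENCODE 29 (GRCh38), and promoter windows from RefSeq.

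Expected counts were rounded, filtered with filterByExpr on the treatment groups, which left 14176 genes, and scaled by TMM (factors 0.971 to 1.03). Tests used edgeR 4.0.16 (robust quasi-likelihood, cell line and treatment as terms, 2 residual degrees of freedom) in R 4.3.3, with Benjamini-Hochberg adjustment at 0.05, and the code was tested on simulated data. DESeq2 1.42.0, limma 3.58.1 (voom), other scalings, no filter, a non-robust fit, no line term and leaving out each line were the alternatives. Tables and plots used Python 3.11.15 with pandas 2.3.3, numpy 2.4.6, scipy 1.17.1 and matplotlib 3.10.9. Within a line, the change is the log2 ratio of CPM after adding a prior count of 2. The 95% intervals are exact conditional binomial intervals for the ratio of rounded counts without that prior count. Like the limit set by 3 counts they cover counting error only, since no condition of a line has more than 1 library. No molecular identifiers were used here, so copies of a molecule may have been counted more than once.

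The pairing of libraries comes from the cell line in the labels. Across genes, a line's TGF-β1 and control libraries deviated together from the means of their conditions, with correlations of 0.589 (MHCC97L), 0.457 (MHCC97H) and 0.728 (HCCLM3). The 41 genes and the related lists were chosen with earlier results of these data known. Values per library are given for genes called after TGF-β1, for the 3 largest called differences of each line comparison, and for ACTB, ACTG1, ACTA2 and SRF. PALLD, NEDD9, SMTN, KCNMB1, COL1A1 and COL3A1 are also given per library, chosen after their values were seen. The markers described by line, such as ALB, were chosen in the same way. From the related lists at most 6 called genes each are named, by p. A further list of related genes is not reported here.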

Additional observations from a re-analysis of the deposited data

Results flagged for a closer look

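For 5 genes the change after TGF-β1 went in opposite directions in different lines, with 95% counting intervals on opposite sides of 0. These compare 1 pair of libraries per line, the intervals cover counting error only, and the differences between lines were not tested. TPM2, a tropomyosin, was at 0.19 in MHCC97L and 0.29 in MHCC97H, against −0.06 in HCCLM3. MYH9, the non-muscle myosin IIA heavy chain, was at 0.24 in MHCC97H and −0.06 in MHCC97L. FLNA was at 0.20 in MHCC97H and at −0.10 in both MHCC97L and HCCLM3. DIAPH1 was at 0.08 in MHCC97H, against −0.14 in MHCC97L and −0.20 in HCCLM3. SRF was at 0.18 in MHCC97H and 0.13 in HCCLM3, against −0.12 in MHCC97L. None of the 5 was called in the fit over the 3 lines.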

How the results depend on the processing

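Under the alternatives run, no gene that passed the test reversed its direction in that comparison. Within lines, a prior count of 0.5 or library totals gave the same counts at 1.5-fold. After TGF-β1, the 13 genes called higher and 3 called lower became 10 to 13 higher and 2 to 3 lower under other scalings, no filter, DESeq2, limma-voom and the non-robust fit. Without the replicate block of cell line they became 0 higher and 0 lower. Leaving out 1 line at a time gave 5 to 16 higher and 0 to 3 lower. Between lines, HCCLM3 against MHCC97L held 12 to 14 higher and 5 to 7 lower, and HCCLM3 against MHCC97H 12 to 16 higher and 4 lower. MHCC97H against MHCC97L went to 2 higher and 10 lower without HCCLM3 and was otherwise at 0 higher and 2 to 3 lower. Over all genes, the 2047 calls after TGF-β1 became 10 with no line term, 611 without MHCC97L, 981 without MHCC97H and 3971 without HCCLM3, and the 348 calls of MHCC97H against MHCC97L became 1296 without HCCLM3. The causes were not tested. A fit without 1 line has fewer libraries, 4 in all. Depth limits ACTA2 and CNN1 in all lines and TNS1 and COBL in HCCLM3, where libraries hold few or no counts.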
